A study of Mus musculus with 8 samples.

Results

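The genes described here encode enzymes that modify xenobiotics, reactive aldehydes and related small molecules, measured in a mouse kidney collecting duct cell line with and without added NaCl. They were taken from the count table by gene symbol: glutathione S-transferases (Gst, Mgst), cytochromes P450 of families 1 to 4 (Cyp), aldehyde dehydrogenases (Aldh), aldo-keto reductases of families 1 and 7 (Akr), UDP-glucuronosyltransferases of families 1 and 2 (Ugt), sulfotransferases (Sult), epoxide hydrolases (Ephx), flavin-containing monooxygenases (Fmo) and carbonyl reductases (Cbr). Akr1b3 and Aldh7a1 were left out by the same rule. This gave 70 of the 15288 genes in the table. The cells were IMCD, a line named for the inner medullary collecting duct and labelled as duct cells of mouse kidney, and the labels give no genotype, strain or passage. Both groups were grown to confluency in serum-containing, high-glucose DMEM with antibiotics and then kept for 12 h in DMEM without serum. The control group (4 libraries, replicates 1 to 4) had no added NaCl, and the NaCl group (4 libraries, replicates 5 to 8) had 100 mmol NaCl, an amount the labels give without a volume. No label says that the libraries came from separate cultures, so p-values measure the spread between these libraries, which may be technical, and all of them come from 1 cell line.

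Enzymes of xenobiotic metabolism are usually grouped by the step they carry out. Phase I enzymes (P450s, flavin-containing monooxygenases, epoxide hydrolases, aldehyde and carbonyl oxidoreductases) oxidise, hydrolyse or reduce a compound, and phase II enzymes (glutathione, glucuronic acid and sulfate transferases) attach a polar group to it. Many of these enzymes also act on endogenous substrates: aldehyde dehydrogenases clear lipid aldehydes and make retinoic acid, P450s of the 4 family hydroxylate fatty acids, and glucuronosyltransferases conjugate bilirubin and steroids. In the kidney the proximal tubule is their best known site, and the collecting duct expresses a smaller selection.

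Glucuronosyltransferase transcripts were lower with NaCl in every tested gene of the family, and these held the largest fold differences among the 63 tested enzyme genes. The microsomal glutathione transferase Mgst1, the P450s Cyp2s1 and Cyp4a12a and the aldo-keto reductase Akr1c14 fell as well, by between 1.73-fold and 2.08-fold. Cbr2, a carbonyl reductase, rose 1.62-fold, and 3 genes of low level, Ephx2, Fmo5 and Cyp4b1, rose by between 1.55-fold and 1.92-fold. The most abundant enzymes, such as Akr1a1, Ephx1, Gstp1 and Aldh2, differed little or not past the threshold. Of the 70 genes, 63 had enough counts to be tested. A total of 25 were called with edgeR's quasi-likelihood test at a Benjamini-Hochberg adjusted p-value under 0.05, 9 higher and 16 lower with NaCl. That is 39.7% of the 63, beside 34.1% of the 14024 genes tested in these libraries. Over all tested genes 16.9% were called higher and 17.2% lower.

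A change of at least 1.5-fold together with a call was seen in 11 of the enzyme genes, where 7.02% of all tested genes met both conditions, and at least 2-fold in 4, where the share over all genes was 3.2%. The 63 tested genes had a median log2 fold change (NaCl over control) of -0.07, beside 0.0029 over all tested genes. Among called genes the median absolute log2 fold change was 0.39 for the enzymes and 0.28 for all genes. The ranges of the groups were separate, with no overlap, in 25 of the 70 genes, 7 higher and 18 lower, beside 33.4% of all tested genes (16.5% higher, 16.9% lower). The 70 include genes that were not tested, while the share over all genes is of tested genes only. The 7 genes that were not tested, Aldh3a1, Aldh1b1, Cyp2c65, Cyp4a12b, Fmo2, Gstm4 and Ugt1a6a, had at most 19 counts in any library. Among them Cyp2c65 had 5, 0, 0 and 0 counts in the control libraries and 19, 2, 11 and 10 in the NaCl libraries, which overlapped.

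**Figure D1:**
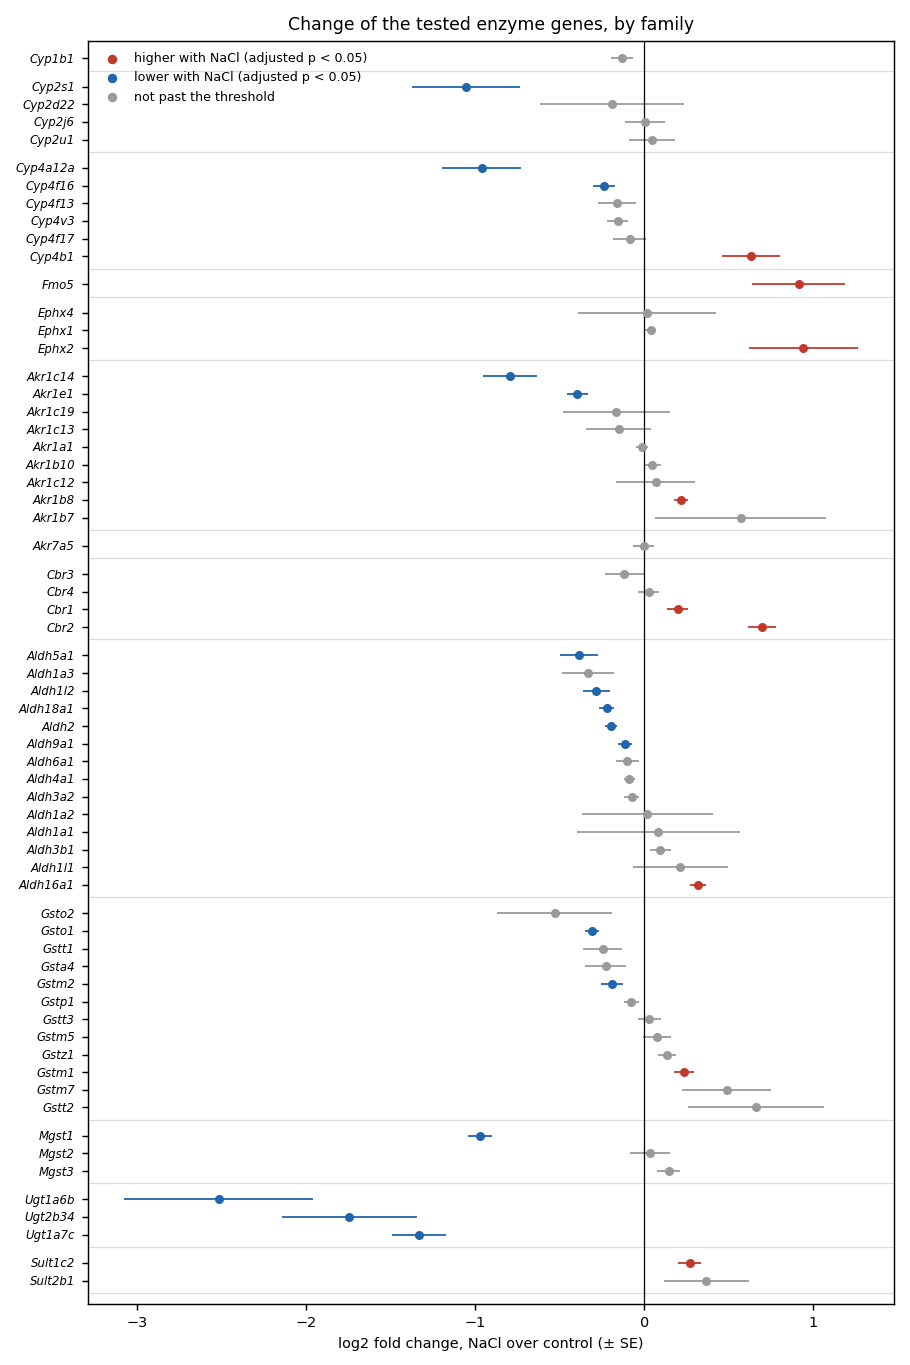
Log2 fold change (NaCl over control, x axis) of the 63 tested enzyme genes, 1 row a gene, grouped by family, where the point is the edgeR estimate and the bar is 1 SE either side. The 3 UGT genes lie furthest to the left, between -2.52 and -1.33, while most points of the ALDH, AKR1 and GST families lie within 0.5 of 0.

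Library totals ranged from 35.3 to 47.6 M counts (M, 1000000 counts), and the biological coefficient of variation over all genes was 6.39%. Collecting duct and epithelial markers were read in both groups: Krt7 was between 307 and 382 CPM (counts per 1000000 counts of a library) in control and between 296 and 359 CPM in NaCl libraries, Pax8 between 147 and 171 CPM in control and between 219 and 242 CPM with NaCl. Aqp2, the vasopressin-regulated water channel that defines the principal cell, was at most 0.364 CPM in any library, and Cdh1 at most 0.709 CPM. Col1a1, a fibroblast collagen, was between 1951 and 2652 CPM. The collecting duct list (15 of 16 genes in the table) summed to between 1561 and 1954 CPM in control and between 2515 and 2785 CPM in NaCl libraries, with 6 genes higher and 2 lower of 13 tested and a median log2 fold change of -0.0024. Most of the difference in that sum was Cdh16, a kidney cadherin, at 639 ± 77.3 CPM in control and 1379.7 ± 69.8 CPM with NaCl (SD, n = 4 each). The 2 lower genes were Tfcp2l1 (130 ± 13.6 CPM in control, 101 ± 3.21 CPM with NaCl) and Hoxb7 (71.4 ± 3.54 and 60.2 ± 3.90 CPM). The fibroblast list (5 of 5 genes) summed to between 2753 and 3185 CPM and between 2405 and 2822 CPM, the proximal tubule list (3 of 7) to between 162 and 205 CPM and between 155 and 177 CPM, and the leukocyte list (2 of 3) to between 5.95 and 7.19 CPM and between 14.9 and 15.3 CPM. Nearly all of the proximal tubule sum was Lrp2, at 185 ± 20.6 CPM in control and 162 ± 8.89 CPM with NaCl. Of the 2 leukocyte genes, Ptprc was 4.05 ± 0.346 CPM in control and 13.5 ± 0.434 CPM with NaCl, and Cd68, which was not called, 2.41 ± 0.342 and 1.69 ± 0.348 CPM (SD, n = 4 each). The loop of Henle list (3 of 3) stayed at or under 3.63 CPM and the endothelial list (1 of 3) at or under 0.797 CPM, and the 4 intercalated cell genes were not analysed here. In bulk RNA, fewer cells of a type and less RNA per cell cannot be told apart, and the part of cell type composition in the enzyme results was not tested.

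A second kind of fit added the number of the library (1 to 8) as a linear term, here called the linear drift. That term overlaps with the group, since controls are numbered 1 to 4 and NaCl libraries 5 to 8. In it 15 of the 63 enzyme genes were called, beside 24.1% of all tested genes, and 11 of the 25 calls were kept in the same direction: Akr1e1, Aldh16a1, Cyp2s1, Cyp4a12a, Ephx2, Fmo5, Gstm1, Gsto1, Mgst1, Ugt1a7c and Ugt2b34. The other 14 calls were lost, 13 of them with the direction kept. The SE under the drift was a median of 1.95 times the SE without it over the 25 genes. Of the 14, the log2 fold change was at least as large for 4: Ugt1a6b (-2.86), Aldh5a1 (-0.55), Aldh1l2 (-0.30) and Aldh9a1 (-0.16). It was smaller by less than 1.5 times for Akr1c14 (-0.68), Cyp4b1 (0.50), Cyp4f16 (-0.23) and Cbr1 (0.17). It was smaller by more for Cbr2 (0.25), Aldh18a1 (-0.14), Aldh2 (-0.10), Akr1b8 (0.10) and Gstm2 (-0.073), and turned for Sult1c2. When the number was instead centred inside each group, which leaves the difference between groups in place, 30 of the 63 enzyme genes were called, beside 43% of all tested genes, and 24 of the 25 calls were kept. Libraries of a group differed more the further apart their numbers were: the chi-square per gene over all genes (1 is counting noise) was 5.25 to 10.3 between neighbouring numbers, 12.1 to 17.1 between the next ones, 21.2 between controls 1 and 4 and 23.8 between NaCl libraries 5 and 8. Library order and treatment cannot be told apart in this design, for the calls kept as for those lost.

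Families were next compared by their summed level per kilobase of exon, which allows genes of different length to be set side by side. The sums are over the 70 genes and hold neither Akr1b3 nor Aldh7a1. AKR1 genes held the highest sum, 242 ± 8.12 CPM per kb in control and 245 ± 7.42 CPM per kb in NaCl libraries (SD, n = 4 each, as for all means below). ALDH followed at 201 ± 4.21 and 184 ± 3.67 CPM per kb, and the cytosolic GSTs at 200.2 ± 7.70 and 189 ± 4.42 CPM per kb. The remaining phase II families stood lower, the MGSTs at 37.5 ± 2.04 and 34.4 ± 1.99 and the SULTs at 24.95 ± 2.27 and 30.1 ± 2.30 CPM per kb. UGT transcripts reached 1.69 ± 0.12 and 0.60 ± 0.15 CPM per kb, and FMO transcripts 0.18 ± 0.05 and 0.31 ± 0.05 CPM per kb. The left-out Akr1b3 alone was at 50.9 CPM per kb in control and 333 CPM per kb in NaCl libraries. The AKR1 sum is therefore not that of the whole family.

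The sum over all 70 genes differed little, 902 ± 7.63 CPM per kb in control and 887 ± 13.9 CPM per kb in NaCl libraries, although single families went in opposite directions. On the same scale CBR went from 41.7 ± 2.88 to 56.6 ± 4.68 CPM per kb, and CYP2 from 8.19 ± 1.36 to 5.76 ± 0.91 CPM per kb. The libraries of the groups overlapped in the AKR1, AKR7, CYP1, CYP2, EPHX, GST, MGST and SULT sums and did not in those of UGT, CBR, FMO, ALDH and CYP4. Summed over all CYP genes they did not overlap either (64.2 ± 2.05 CPM per kb in control, 56.4 ± 0.98 CPM per kb with NaCl). No p-value is given for these sums. Counted by step, 17 of 43 tested phase I genes were called (7 higher, 10 lower) and 8 of 20 phase II genes (2 higher, 6 lower). These shares are 39.5% and 40.0%, beside 34.1% of all tested genes (16.9% higher, 17.2% lower).

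**Figure D2:**
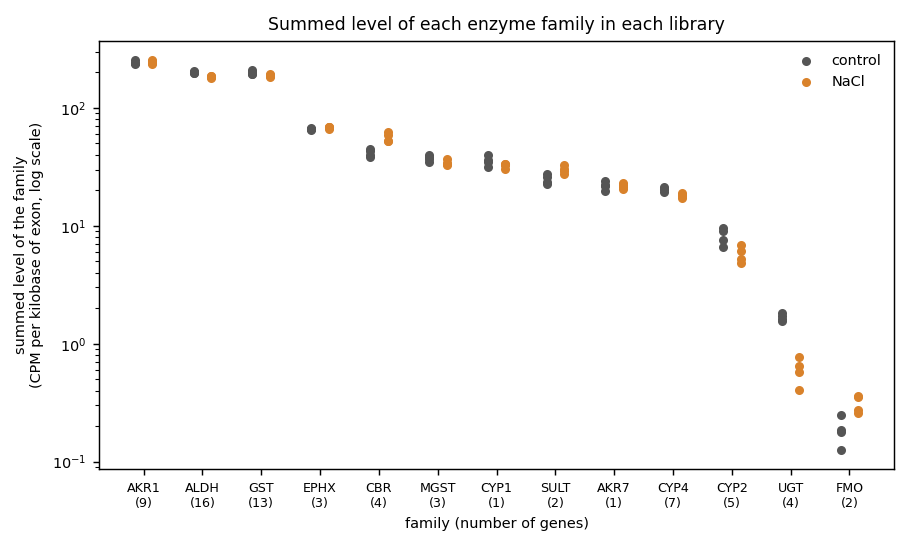
Summed level of each enzyme family (CPM per kilobase of exon, log scale, y axis) in each library, with families on the x axis and their number of genes in brackets, control libraries in grey and NaCl libraries in orange. The CYP genes are split into CYP1, CYP2 and CYP4, and Akr1b3 and Aldh7a1 are in no sum. Of the sums shown, UGT, CBR, FMO, ALDH and CYP4 separate the groups and the others do not. The UGT sum is the one that lies furthest apart, 1.69 against 0.60 CPM per kb.

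Upstream sequence of 3 genes is given first, because the UGT genes of chromosomes 1 and 5 were lower together and because Aldh5a1 was the only enzyme gene with a match to the tonicity-responsive enhancer, the element bound by the osmotic stress factor NFAT5. The sequences are the 250 bases before the RefSeq gene start in GRCm38.p6, written 5′ to 3′ on the gene's strand, and capitals mark a motif match.
Ugt1a7c, chr1:88094751-88095000, plus strand: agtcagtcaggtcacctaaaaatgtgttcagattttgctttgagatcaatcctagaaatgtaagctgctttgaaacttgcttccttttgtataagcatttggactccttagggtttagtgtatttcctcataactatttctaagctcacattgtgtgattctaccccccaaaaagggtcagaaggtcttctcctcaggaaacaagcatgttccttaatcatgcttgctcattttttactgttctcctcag
Ugt2b34, chr5:86906938-86907187, minus strand: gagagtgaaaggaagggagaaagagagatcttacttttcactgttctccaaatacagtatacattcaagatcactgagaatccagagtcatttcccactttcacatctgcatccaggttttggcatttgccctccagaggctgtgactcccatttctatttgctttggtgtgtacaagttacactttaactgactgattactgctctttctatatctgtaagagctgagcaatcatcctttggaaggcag
Aldh5a1, chr13:24937662-24937911, minus strand: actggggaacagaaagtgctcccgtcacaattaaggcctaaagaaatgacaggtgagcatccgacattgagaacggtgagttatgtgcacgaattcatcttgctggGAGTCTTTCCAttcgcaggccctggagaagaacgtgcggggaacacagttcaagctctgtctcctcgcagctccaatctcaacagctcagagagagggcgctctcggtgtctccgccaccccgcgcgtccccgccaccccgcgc

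The sequences of Ugt1a7c and Ugt2b34 hold none of the 3 motifs searched on both strands. These were the antioxidant response element core (TGACNNNGC), the xenobiotic response element core (GCGTG) and the tonicity-responsive enhancer consensus. The table of RefSeq promoters matched 57 of the 70 genes, with 69 promoters. Of these 69 windows, 47 overlap the GENCODE model of their own gene by 1 base or more. The antioxidant core was present in the windows of 5 enzyme genes (Aldh1a2, Aldh9a1, Gstm5, Gstm7 and Mgst1), 7.25% of their promoters, beside 10.2% of all 32851 promoters. For Gstm7 and Mgst1 the match lay inside the gene model. The xenobiotic core was present in the windows of 16 enzyme genes, in 7 of them only inside the gene model, and in 24.6% of their promoters and 28.2% of all. The tonicity-responsive enhancer was in 1.45% and 4.31%. Among called genes with a matched promoter, 2 of 12 lower and 0 of 8 higher genes held the antioxidant core, and 3 of 12 and 3 of 8 the xenobiotic core. A match describes these letters and not binding, and the absence of a match says nothing about the factor.

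UDP-glucuronosyltransferases attach glucuronic acid to bilirubin, steroids, phenols and drugs. The genes of the UGT1 locus (chr1:88095062-88220002 for Ugt1a7c) each have a first exon of their own and share the exons that follow, so counts of the UGT1 genes are not independent. Ugt1a7c, the most abundant of the family, had 4.65, 4.41, 4.74 and 4.80 CPM in the control libraries and 1.31, 1.82, 2.21 and 2.0 CPM in the NaCl libraries. Every NaCl library lay below every control library. Ugt1a7c fell 2.52-fold (log2 fold change -1.33, SE 0.16, edgeR adjusted p = 7.26e-06). Of its transcript sequence 69.7% is shared with other genes, chiefly Ugt1a6b.

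Ugt1a6b (chr1:88103252-88219003), a phenol-conjugating form whose annotated transcript is shared over 100% of its length, was read 19, 17, 12 and 28 times in the controls and 2, 7, 1 and 2 times with NaCl. Its estimate was a 5.72-fold fall (log2 -2.52, SE 0.56, edgeR adjusted p = 0.00222) on these few reads, and it cannot be separated from that of Ugt1a7c. Ugt1a6a, too low to be tested, was read 4, 7, 18 and 18 times in the controls and 3, 6, 3 and 11 times with NaCl, and the groups overlapped.

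Ugt2b34 lies on another chromosome (chr5:86889767-86906937), belongs to the steroid-conjugating UGT2B group and shares no transcript sequence at the threshold used. It was read 69, 56, 69 and 58 times in the controls and 8, 7, 39 and 16 times with NaCl. No NaCl library reached the lowest control, although NaCl replicate 7 stood above the other NaCl libraries. Ugt2b34 fell 3.35-fold (log2 -1.74, SE 0.40, edgeR adjusted p = 0.00301). The summed UGT level was 6.82 ± 0.45 CPM in control and 2.48 ± 0.66 CPM with NaCl, a ratio of 0.36.

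**Figure D3:**
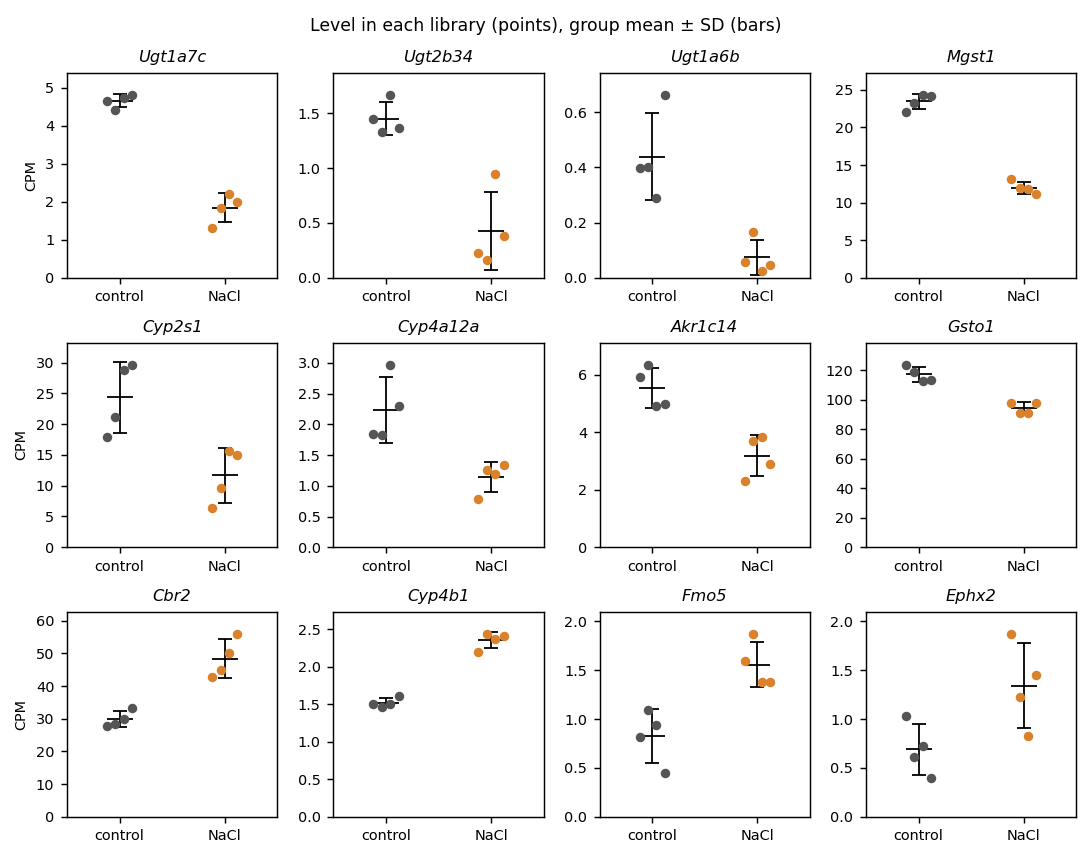
CPM (y axis, from 0) of 12 enzyme genes in each library (points), with the group mean and SD as bars, control in grey and NaCl in orange, n = 4 each. The 8 genes of the upper rows are lower with NaCl and the 4 of the bottom row higher, and of the 12 only Ephx2 has overlapping groups.

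Among the P450s, which insert oxygen into lipophilic substrates, 11 of 13 genes were tested, and 1 was higher and 3 lower with NaCl. The called share was 36.4%, beside 34.1% over all tested genes. Cyp1b1, which hydroxylates estrogens and polycyclic hydrocarbons, was the most abundant at 35.6 CPM per kb in control. It had 235, 211, 203 and 184 CPM in control and 196, 191, 195 and 178 CPM in NaCl libraries, which overlapped. The log2 fold change of Cyp1b1 was -0.13 (SE 0.064, edgeR adjusted p = 0.139), and it was 0.18 under the linear drift.

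Cyp2s1 (chr7:25802475-25816913), an extrahepatic P450 known to be induced through the aryl hydrocarbon receptor, had 17.9, 21.1, 28.8 and 29.7 CPM in control. With NaCl it had 6.44, 9.55, 15.6 and 15.0 CPM. The groups did not overlap, but each spanned a wide range, with the lowest values in control replicates 1 and 2 and NaCl replicates 5 and 6. Cyp2s1 fell 2.08-fold (log2 -1.06, SE 0.32, edgeR adjusted p = 0.0452). The call was lost in 5 of the 8 fits that left out 1 library (without control replicate 2, 3 or 4 or NaCl replicate 6 or 8, adjusted p up to 0.111), and under the linear drift the log2 fold change was -2.41. The other CYP2 genes tested, Cyp2j6, Cyp2u1 and Cyp2d22, had log2 fold changes between -0.19 and 0.05, none of them called.

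The CYP4 genes, fatty acid and eicosanoid hydroxylases, differed in direction. Cyp4a12a, an arachidonic acid hydroxylase of male mouse kidney, was read 88, 77, 123 and 97 times in the controls and 28, 53, 49 and 56 times with NaCl, without overlap. It fell 1.95-fold (log2 -0.96, SE 0.23, edgeR adjusted p = 0.00435), and 98.8% of its transcript is shared with Cyp4a12b, which had at most 10 counts in a library. Cyp4b1, also on chromosome 4 (115624725 to 115647723), was read 72, 62, 62 and 68 times in the controls and 79, 103, 98 and 101 times with NaCl. Cyp4b1 rose 1.55-fold (1.52 ± 0.0601 against 2.36 ± 0.104 CPM; log2 0.63, SE 0.17, edgeR adjusted p = 0.00938). The groups of Cyp4b1 did not overlap.

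Cyp4f16, of a subfamily that hydroxylates leukotrienes and long-chain fatty acids, was 23.0 ± 0.980 CPM in control and 19.5 ± 0.974 CPM with NaCl (log2 -0.24, SE 0.063, edgeR adjusted p = 0.00769). The 3 tested genes Cyp4f13, Cyp4f17 and Cyp4v3 had log2 fold changes between -0.16 and -0.09 and were not called, Cyp4v3 with an edgeR adjusted p of 0.0602 and no overlap between the groups.

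Flavin-containing monooxygenases oxygenate nitrogen and sulfur atoms of drugs. Fmo5, the only one tested, was read 39, 46, 39 and 19 times in the controls and 57, 79, 57 and 58 times with NaCl. It rose 1.88-fold, from 0.825 ± 0.274 to 1.56 ± 0.231 CPM (log2 0.91, SE 0.27, edgeR adjusted p = 0.0159), with no overlap. Without NaCl replicate 6 the call was lost (adjusted p = 0.0588).

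Epoxide hydrolases open epoxides made by P450s. Ephx1, the microsomal form, had 127, 126, 131 and 129 CPM in control and 127, 134, 133 and 134 CPM in NaCl libraries. The difference was within the spread of these libraries (log2 0.04, 95% interval from -0.03 to 0.11, edgeR adjusted p = 0.397). Ephx2, the soluble form that hydrolyses fatty acid epoxides, stood far lower, at 1.03, 0.616, 0.725 and 0.402 CPM in control and 1.87, 1.23, 0.824 and 1.45 CPM with NaCl. It rose 1.92-fold (log2 0.94, SE 0.32, edgeR adjusted p = 0.0327), NaCl replicate 7 lying below control replicate 1. The Ephx2 call was lost in 6 of 8 fits that left out 1 library (without control replicate 2, 3 or 4 or NaCl replicate 5, 6 or 8, adjusted p up to 0.113). Ephx4 had at most 0.569 CPM in any library and was not called.

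Carbonyl reductases reduce ketones and quinones with NADPH, and 2 of the 4 genes were called higher, beside 16.9% of all tested genes. Cbr2 (chr11:120729489-120732114), the mitochondrial form known from lung, had 27.7, 28.4, 30.0 and 33.3 CPM in control and 42.7, 44.8, 50.1 and 55.9 CPM in NaCl libraries. The lowest NaCl library lay above the highest control. Cbr2 rose 1.62-fold (log2 0.70, SE 0.083, edgeR adjusted p = 2.64e-05) and kept its call in each of 8 fits that left out 1 library, while the linear drift gave 0.25 (adjusted p = 0.0607).

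Cbr1, the cytosolic form that reduces anthracyclines and prostaglandins, had 22.3, 24.4, 25.5 and 22.4 CPM in control and 28.1, 25.6, 26.8 and 28 CPM with NaCl. It rose 1.15-fold (log2 0.20, SE 0.063, edgeR adjusted p = 0.0226), with a small gap between the groups. The Cbr1 call was lost without control replicate 1 or 4 or NaCl replicate 5 or 8 (adjusted p up to 0.0644). Cbr3, next to Cbr1 on chromosome 16, was 8.0 ± 1.15 CPM in control and 7.36 ± 0.586 CPM with NaCl, and Cbr4 22.5 ± 1.09 and 23.0 ± 1.10 CPM, neither called.

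Aldo-keto reductases reduce aldehydes, ketones and steroids. Akr1a1, which reduces glucuronate and many aldehydes, was the most abundant of the 70 genes per kilobase, at 173 CPM per kb in control and 171 CPM per kb with NaCl. It had 457, 472, 472 and 497 CPM in control and 451, 463, 479.6 and 488 CPM in NaCl libraries, which overlapped throughout. The log2 fold change of Akr1a1 was -0.01 (95% interval from -0.09 to 0.06, edgeR adjusted p = 0.806), and leaving out control replicate 4 or NaCl replicate 5 turned its sign.

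Akr1b8, an aldose reductase relative that reduces lipid aldehydes, had 65.8, 67.2, 66.7 and 70.9 CPM in control and 77.6, 76.2, 79.5 and 81.6 CPM with NaCl. It rose 1.16-fold (log2 0.22, SE 0.040, edgeR adjusted p = 0.000462) without overlap. Its neighbours on chromosome 6 were not called: Akr1b10 had a log2 fold change of 0.05 and Akr1b7, at 0.250 ± 0.181 CPM in control, one of 0.57 (SE 0.51).

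Akr1c14, a 3-alpha-hydroxysteroid dehydrogenase, had 5.91, 6.35, 4.91 and 4.99 CPM in control and 2.32, 3.69, 3.83 and 2.91 CPM with NaCl. The groups did not overlap, and Akr1c14 fell 1.73-fold (log2 -0.79, SE 0.16, edgeR adjusted p = 0.000934). The other AKR1C genes of this chromosome 13 cluster, Akr1c12, Akr1c13 and Akr1c19, had log2 fold changes of 0.07, -0.15 and -0.17 and were not called. Akr1e1, which reduces 1,5-anhydrofructose and lies on the same chromosome, fell 1.32-fold, from 30.3 ± 1.82 to 23.0 ± 0.989 CPM (log2 -0.40, SE 0.061, edgeR adjusted p = 8.51e-05). Akr7a5, a reductase of aflatoxin dialdehyde and succinic semialdehyde, was 39.2 ± 3.36 CPM in control and 39.0 ± 1.95 CPM with NaCl and was not called.

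Aldehyde dehydrogenases oxidise aldehydes to acids, and 14 of 16 genes were tested. Of these 42.9% were called, 1 higher and 5 lower, beside 34.1% of all tested genes. None of the ALDH calls reached 1.5-fold. Aldh2, the mitochondrial enzyme that clears acetaldehyde and 4-hydroxynonenal, was the most abundant by CPM, with 333, 313, 314 and 304 CPM in control and 272, 279, 286 and 265 CPM in NaCl libraries. Each NaCl library lay below each control. Aldh2 fell 1.15-fold (log2 -0.20, SE 0.036, edgeR adjusted p = 0.000459).

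The mitochondrial 10-formyltetrahydrofolate dehydrogenase Aldh1l2 had 152, 156, 139 and 141 CPM in control and 103, 128, 135 and 117 CPM with NaCl. It fell 1.22-fold (log2 -0.28, SE 0.079, edgeR adjusted p = 0.0198) without overlap, and the call was lost without control replicate 1 or 2 (adjusted p up to 0.0783). Of its transcript 17.5% is shared with a gene on the opposite strand, D10Wsu102e, and the strandedness of the counting is not given in the sources used here.

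Aldh18a1, the pyrroline-5-carboxylate synthase of proline synthesis, fell 1.17-fold, from 136 ± 7.53 to 117 ± 4.44 CPM (log2 -0.22, edgeR adjusted p = 0.000659). Aldh5a1, the succinic semialdehyde dehydrogenase whose upstream sequence is shown above, had 7.21, 6.05, 6.86 and 7.17 CPM in control and 4.46, 5.44, 5.65 and 5.31 CPM in NaCl libraries. Aldh5a1 fell 1.31-fold (log2 -0.39, SE 0.11, edgeR adjusted p = 0.0137) without overlap, and 16.9% of its transcript is shared with the opposite-strand gene 4932702P03Rik.

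Aldh9a1, which oxidises trimethylaminobutyraldehyde on the way to carnitine, was 60.9 ± 1.99 CPM in control and 56.2 ± 1.76 CPM with NaCl (log2 -0.11, edgeR adjusted p = 0.0478), and leaving out 1 library ended the call in 6 of 8 fits (control replicate 1, 3 or 4 or NaCl replicate 5, 6 or 7). Aldh16a1, an unusual member thought to lack activity in mammals, was the one that rose, with 47.3, 47.9, 45.0 and 46.9 CPM in control and 54.8, 59.9, 56.5 and 61.6 CPM with NaCl. It rose 1.24-fold (log2 0.32, SE 0.047, edgeR adjusted p = 7.00e-05), and the groups did not overlap.

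The retinoic acid-forming ALDH1A genes were low and none was called. Aldh1a3 was 6.92 ± 1.54 CPM in control and 5.48 ± 0.885 CPM with NaCl (log2 -0.33, edgeR adjusted p = 0.108), and Aldh1a1 and Aldh1a2 had at most 0.533 CPM in a library. Aldh4a1, which completes proline breakdown, was 124 ± 3.55 and 116 ± 2.10 CPM, lower in all 4 NaCl libraries yet not called (edgeR adjusted p = 0.0582). Of the Aldh4a1 transcript 38.8% is shared with other genes, chiefly Gm21969 on the same strand. The fatty aldehyde dehydrogenase Aldh3a2 was 75.1 ± 2.88 and 71.4 ± 3.39 CPM (log2 -0.07, edgeR adjusted p = 0.210). The remaining tested genes, Aldh3b1, Aldh6a1 and Aldh1l1, had log2 fold changes between -0.10 and 0.21.

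Cytosolic glutathione S-transferases couple glutathione to electrophiles, and of 12 tested genes 1 was called higher and 2 lower. The called share of this family was below the 34.1% over all tested genes. Gstp1 had the highest level per kilobase, 67.0 CPM per kb in control. It was 104 ± 6.46 CPM in control and 98.4 ± 3.93 CPM with NaCl (log2 -0.08, 95% interval from -0.17 to 0.02, edgeR adjusted p = 0.215), and 86.1% of its transcript is shared with Gstp2. Gsto1, an omega-class form that reduces dehydroascorbate and methylated arsenic, had 124, 119, 113 and 113 CPM in control and 97.8, 91.0, 91.2 and 98 CPM with NaCl. The groups lay well apart, and Gsto1 fell 1.24-fold (log2 -0.31, SE 0.041, edgeR adjusted p = 2.09e-05). Its neighbour Gsto2 was 0.691 ± 0.154 CPM in control and 0.475 ± 0.154 CPM with NaCl and was not called.

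The mu-class genes lie together on chromosome 3, from 107895821 to 108044894, and they did not move together. Gstm1 had 45.8, 39.1, 39.2 and 38.4 CPM in control and 49.6, 49.4, 47.6 and 44.7 CPM in NaCl libraries. Control replicate 1 stood above the other controls and above NaCl replicate 8. Gstm1 rose 1.18-fold (log2 0.23, SE 0.059, edgeR adjusted p = 0.00544), whereas Gstm2 fell 1.14-fold, from 19.7 ± 1.09 to 17.3 ± 0.781 CPM (log2 -0.19, SE 0.067, edgeR adjusted p = 0.0368). The Gstm2 call was lost in 5 of 8 fits that left out 1 library (control replicate 1, 2 or 3 or NaCl replicate 5 or 8). Gstm5 and Gstm7 had log2 fold changes of 0.07 and 0.49 and were not called.

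The alpha, theta and zeta classes held no call. Gsta4, which conjugates 4-hydroxynonenal, was 6.65 ± 0.727 CPM in control and 5.68 ± 0.740 CPM with NaCl (log2 -0.23, edgeR adjusted p = 0.163). Gstz1, the maleylacetoacetate isomerase of tyrosine breakdown, was 30.7 ± 1.85 and 33.7 ± 0.588 CPM, with no overlap but an edgeR adjusted p of 0.0696. The theta genes Gstt1, Gstt2 and Gstt3 had log2 fold changes of -0.25, 0.66 and 0.03.

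Microsomal glutathione transferases are membrane proteins unrelated in sequence to the cytosolic forms. Mgst1 (chr6:138140316-138156755), which protects membranes from lipid peroxides, had 22.1, 23.3, 24.3 and 24.2 CPM in control and 13.1, 11.9, 11.8 and 11.2 CPM in NaCl libraries. The spread within each group was small and the gap between them wide. Mgst1 fell 1.96-fold (log2 -0.97, SE 0.071, edgeR adjusted p = 2.03e-08), the lowest adjusted p among the 63 genes. Mgst2 and Mgst3, which take part in leukotriene synthesis, were not called, at 6.09 ± 0.529 against 6.21 ± 0.823 CPM and 26.6 ± 1.78 against 29.3 ± 2.36 CPM. Whether Mgst1 differed from Mgst2 and Mgst3 in its change was not tested.

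Sulfotransferases attach sulfate. Sult1c2, which sulfates phenols, had 41.0, 42.8, 47.3 and 50.5 CPM in control and 53.6, 49.8, 55.4 and 60.0 CPM with NaCl. Control replicate 4 lay above NaCl replicate 6, so the groups overlapped. Sult1c2 rose 1.21-fold (log2 0.27, SE 0.069, edgeR adjusted p = 0.00737), and the linear drift turned the sign (log2 -0.068). Sult2b1, a cholesterol sulfotransferase, was 1.40 ± 0.460 CPM in control and 1.81 ± 0.339 CPM with NaCl (log2 0.37, edgeR adjusted p = 0.289).

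Most of the calls past 1.5-fold were in genes of low level, 8 of the 11 under a mean of 10 CPM. Of 9 tested enzyme genes with a mean of at least 100 CPM, 4 were called and none reached 1.5-fold, the largest absolute log2 fold change among the called being 0.31. Between 10 and 100 CPM, 12 of 23 were called and 3 of these (Mgst1, Cyp2s1 and Cbr2) passed 1.5-fold. Between 1 and 10 CPM, 7 of 21 were called, 6 of them past 1.5-fold, and under 1 CPM 2 of 10, both past it.

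Over all tested genes the called share was higher at higher levels. At or above 100 CPM 48.5% were called and 3.14% were called with at least 1.5-fold, between 10 and 100 CPM 35.7% and 3.36%, and between 1 and 10 CPM 29.2% and 16.9%. Under 1 CPM, 13.3% were called and each of these passed 1.5-fold. The precision differed in step: the median SE of the log2 fold change over the enzyme genes was 0.041 at or above 100 CPM, 0.063 between 10 and 100 CPM, 0.16 between 1 and 10 CPM and 0.40 under 1 CPM. A change of the size seen for Aldh2 could therefore not have been detected in the lowest genes.

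**Figure D4:**
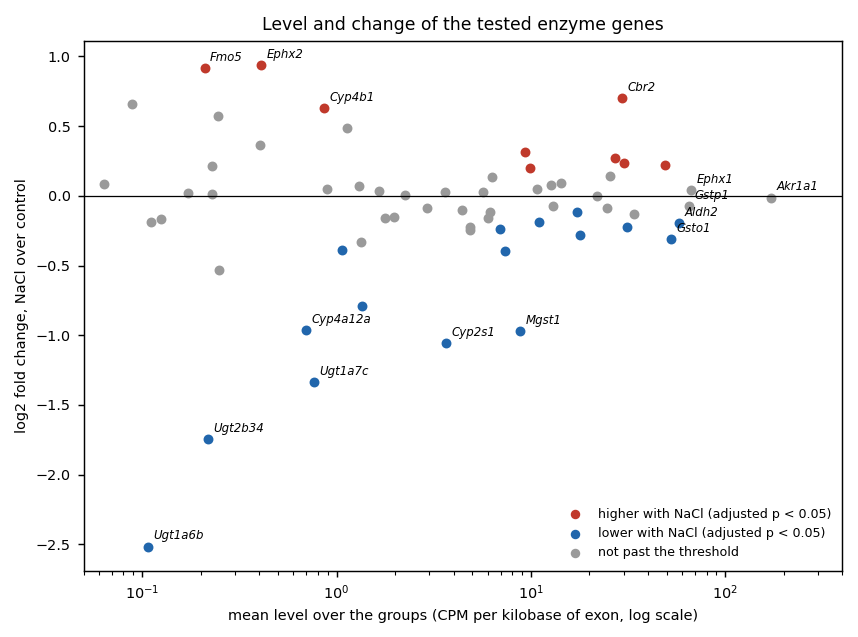
Log2 fold change (NaCl over control, y axis) against mean level (CPM per kilobase of exon, log scale, x axis) for the 63 tested enzyme genes, coloured by call. Points fan out towards low levels, from Akr1a1 at the right near 0 to Ugt1a6b at the lower left at -2.52.

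Genes that work around these enzymes were read from 7 lists, again over the fit on all genes. Among xenobiotic sensors (8 of 12 tested), 1 was higher and 3 lower. Ahr, the aryl hydrocarbon receptor, fell from 42.3 ± 0.924 to 33.2 ± 1.60 CPM (log2 -0.35, edgeR adjusted p = 4.79e-05). Ppara, a fatty acid receptor that controls Cyp4a genes, was very low, 0.237 ± 0.129 CPM in control and 0.547 ± 0.221 CPM with NaCl (log2 1.20, edgeR adjusted p = 0.0484), and its groups overlapped. The Ppara call was lost in 6 of 8 fits that left out 1 library (control replicate 1, 2 or 4 or NaCl replicate 5, 6 or 7).

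Electron donors of P450s (8 of 9 tested) had 1 gene higher and 2 lower. Cyb5r3, a cytochrome b5 reductase, was 378 ± 3.14 CPM in control and 401 ± 5.79 CPM with NaCl (log2 0.08, edgeR adjusted p = 0.0385), a call lost without any 1 of the 8 libraries. Fdxr, which passes electrons to mitochondrial P450s, fell from 11.2 ± 0.695 to 9.33 ± 0.547 CPM (log2 -0.26, edgeR adjusted p = 0.0247), a call lost without control replicate 2 or NaCl replicate 5 or 6. Of the genes that supply glutathione and the conjugation cofactors (12 of 12 tested), 2 were higher and 7 lower (median log2 fold change -0.17). Ggct, a step of glutathione turnover, was highest (log2 0.34, edgeR adjusted p = 0.0175, lost without NaCl replicate 5), and the cystine importer Slc7a11 lowest, from 8.26 ± 1.33 to 4.41 ± 0.696 CPM (log2 -0.90, edgeR adjusted p = 7.99e-05).

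Other oxidising and hydrolysing enzymes (10 of 16 tested) counted 1 higher and 6 lower (median log2 fold change -0.33). Nqo1, the quinone reductase, rose from 5.97 ± 0.660 to 17.7 ± 3.39 CPM (log2 1.56, edgeR adjusted p = 3.68e-07). Adh7, an alcohol dehydrogenase that oxidises retinol, fell from 7.33 ± 0.637 to 3.18 ± 0.698 CPM (log2 -1.20, edgeR adjusted p = 7.00e-06). Of the other transferases (5 of 8 tested) only Inmt, an indole N-methyltransferase, was called, at 13.6 ± 2.24 and 8.15 ± 0.893 CPM (log2 -0.74, edgeR adjusted p = 1.27e-04).

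Efflux pumps, which export conjugates and drugs (7 of 10 tested), had 2 genes higher and 4 lower. Abcc4, an exporter of conjugated anions and cyclic nucleotides, rose from 134 ± 3.05 to 231 ± 15.3 CPM (log2 0.78, edgeR adjusted p = 6.76e-10). Abcb1a, a P-glycoprotein, was read 41, 24, 42 and 39 times in the controls and 2, 5, 3 and 4 times with NaCl (log2 -3.24, edgeR adjusted p = 1.71e-05). Of the retinoid genes (13 of 14 tested) none was called higher and 5 lower, with Dhrs9, a retinol dehydrogenase, falling from 3.46 ± 0.406 to 0.817 ± 0.129 CPM (log2 -2.09, edgeR adjusted p = 3.35e-07). Under the linear drift these calls were lost: Ppara (log2 2.22), Fdxr (-0.32) and Ggct (0.36), each with a log2 fold change larger than without it, Cyb5r3 (0.081, about as large) and Slc7a11 (-0.39, smaller). The lists share their libraries with the enzyme genes and are given beside the same background of 34.1% called.

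**Figure D5:**
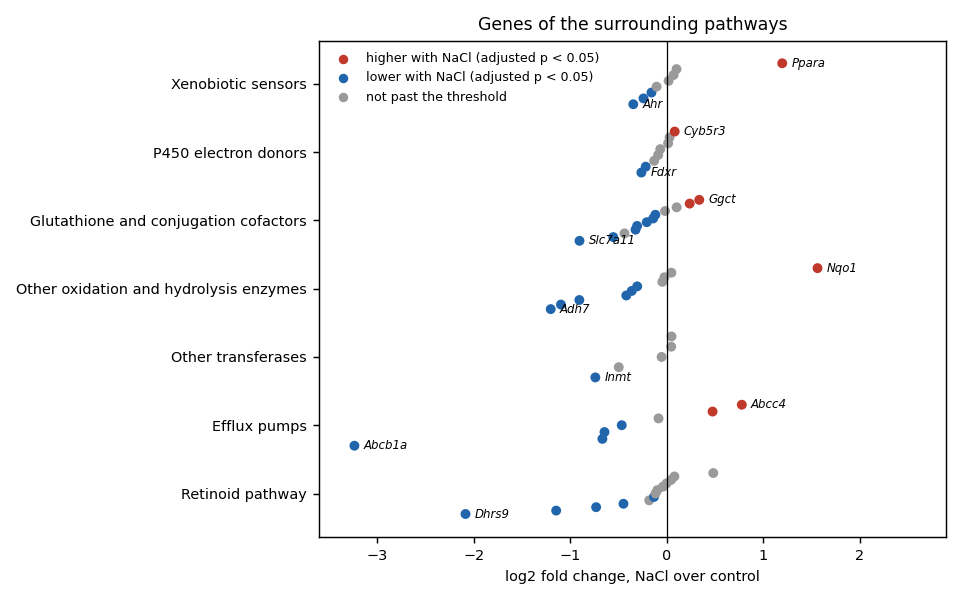
Log2 fold change (NaCl over control, x axis) of the tested genes in 7 lists of related function, 1 row a list, 1 point a gene, coloured by call and with the highest and lowest called gene named. Lower calls outnumber higher calls in each list, for example 2 against 1 in the electron donors, 7 against 2 in the glutathione and cofactor list and 5 against 0 in the retinoid list. Over all tested genes 17.2% were called lower and 16.9% higher. Some lists hold few calls, such as 1 in the other transferases.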

How the data were processed

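Bulk RNA of 8 libraries (4 control, 4 NaCl) was analysed from a deposited table of raw counts per gene for 15288 genes. Per the submitters' processing notes, mm10, Trim Galore 0.6.7, STAR and DESeq2 1.34.0 were used by the authors. How reads were counted, the strandedness and the annotation are not given in the sources used here. A second table, of normalized values, was not used. The enzyme genes and the lists were chosen with earlier results of these data known.

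The tests used edgeR 4.0.16 (R 4.3.3). filterByExpr at a minimum count of 10 kept 14024 genes. After TMM scaling, the robust quasi-likelihood model held the group alone, and its two-sided F test gave log2 fold changes and Benjamini-Hochberg adjusted p-values over all genes, and a gene was called under 0.05. The SE is the absolute log2 fold change divided by the square root of F. CPM used TMM-scaled totals. Levels per kilobase, coordinates and sharing used GENCODE M21 (GRCm38, 15282 identifiers found). Shared sequence was measured with blastn 2.17.0, as alignments of at least 75 bases at 98% identity. Promoters were RefSeq's (GRCm38.p6).

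Genes were named by rule: the 10 highest and 10 lowest log2 fold changes among called genes with a mean of at least 1 CPM, the most abundant gene of each family by CPM, called genes with at most 3 counts in every library of a group, and the highest and lowest called gene of each list. Ugt2b34, Ugt1a6b, Aldh18a1, Aldh9a1 and Gstm2 were named after their values were seen. So were genes that were not called, other than the most abundant of a family.

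On simulated counts (13882 genes tested, NaCl over control) the test recovered 64% of genes changed 1.25-fold, 98% changed 1.5-fold, 81.6% changed 2-fold and 98% changed 4-fold, and 6.59% of 182 calls were false. Replicate pairs differed by 5.25 to 23.8 times counting noise (chi-square per gene), so no libraries were merged. Alternatives were other normalization factors (median of ratios, library totals, upper quartile), other filters, DESeq2 1.42.0, limma-voom (limma 3.58.1), a threshold of 0.01, a test against a fold change of 1.5, leaving out each library, and the library number as a covariate, centred within groups or as a linear drift.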

Additional observations from a re-analysis of the deposited data

Results flagged for a closer look

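In 2 of 62 groups of 4 libraries, 1 library lay far from the rest (over the 31 named enzyme genes), where chance gives about 1 in 20 groups, here 3.1. Ephx1 was 126.9 CPM in NaCl replicate 5, while the other NaCl libraries lay between 133.1 and 134.0 CPM. Gstm1 was 45.8 CPM in control replicate 1, while the other controls lay between 38.4 and 39.2 CPM.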

How the results depend on the processing

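Of 473 refits of the 25 called enzyme genes, 397 kept the direction and the call, 75 kept the direction only and 1 reversed (Sult1c2, -0.068 under the linear drift). Outside the fold-change test, the stricter threshold and the drift, 18 of the 25 were called in every refit. The test against a fold change of 1.5 called 3 enzyme genes (0 higher, 3 lower: Ugt1a7c, Ugt1a6b and Mgst1) and 328 of all genes. A threshold of 0.01 called 3145 of all genes. The library number centred within groups called 30 enzyme genes, 11 of them higher, and kept 24 of the 25. The drift called 15, 4 of them higher. It gave 0.18 for Cyp1b1, and so for the CYP1 median, -0.025 for Ephx1 and -0.087 for Mgst3, and medians of -0.22 for AKR1, -0.28 for AKR7, 1.59 for FMO, -0.40 for MGST and -2.45 for UGT. Without a filter the FMO median was 0.42, since Fmo2 then entered, and with at least 10 counts in every library the UGT median was -1.33, since only Ugt1a7c remained. Leaving out 1 library gave 4071 to 4634 called genes, 21 to 24 called enzyme genes (7 to 9 higher, 13 to 16 lower), and medians of 0.31 to 1.07 for FMO, -0.029 to 0.10 for MGST, -1.83 to -1.38 for UGT, -0.064 to 0.019 for AKR1, -0.057 to 0.044 for AKR7 and -0.19 to -0.069 for CYP1. Akr1a1 ranged from -0.033 to 0.0078 over these and became positive without control replicate 4 (0.0078) or NaCl replicate 5 (0.0062). Akr7a5 ranged from -0.057 to 0.044 and became positive with library totals (0.0057), with limma-voom (0.0011) and without control replicate 4 (0.044), NaCl replicate 5 (0.0017) or NaCl replicate 6 (0.025). Except where given, the cause was not tested. No paired analysis was possible because the labels number the controls 1 to 4 and the NaCl libraries 5 to 8, so the groups share no number.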

Other observations

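Enzymes related to these families but outside the naming rule were read from the same fit, chosen after the data had been seen. Of 25 short-chain dehydrogenases tested, 3 were higher and 4 lower with NaCl (median log2 fold change -0.021), beside 34.1% of all tested genes called. Dhrs3, which reduces retinaldehyde to retinol, was 62.2 ± 4.27 CPM in control and 28.1 ± 1.18 CPM with NaCl (SD, n = 4 each; log2 -1.15, edgeR adjusted p = 1.59e-10). Hsd17b11, a lipid droplet dehydrogenase, was 37.3 ± 2.74 and 53.0 ± 2.52 CPM (log2 0.51, edgeR adjusted p = 2.95e-06). Neither pair of groups overlapped. The other called genes were Dhrs1 (log2 0.28) and Hsd17b8 (0.27), both higher, and Dhrs9 (-2.09), Dhrs7 (-0.37) and Hsd17b12 (-0.25), all lower.

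P450s of other families (8 tested) had none called higher and 3 lower, beside the same 34.1% over all genes: Cyp21a1, the steroid 21-hydroxylase (log2 -1.22), Cyp39a1, an oxysterol hydroxylase (-0.25), and Cyp20a1 (-0.18). The last 2 calls were lost without 1 library, Cyp39a1 without NaCl replicate 6 and Cyp20a1 without control replicate 1 or 2 or NaCl replicate 5 or 6. Under the linear drift these calls were lost: Cyp21a1 (-1.31), Cyp39a1 (-0.23) and Hsd17b8 (0.27), with a log2 fold change about as large as without it, and Dhrs1 (0.20), Cyp20a1 (-0.094) and Hsd17b12 (-0.087), with a smaller one.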
